A study of Mus musculus with 3 samples.

Results

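The members are 758 probes of a mouse promoter array whose DNA was high for PRDM2 in arrested myoblasts although its GC content was modest. They were selected as the autosomal probes of 35 to under 45% GC with input signal well above background on all 3 arrays and a log2 ratio of immunoprecipitated (IP) DNA over input in the top 3% of such probes on each of the 2 PRDM2 arrays. Of 237203 probes outside the controls, 118736 met the conditions on chromosome, GC content and input and are called eligible, and the members were 0.638% of these. The 117978 other eligible probes are the comparison throughout. Because the PRDM2 ratios chose the members, their PRDM2 values are given as a description and carry no test.

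Chromatin came from C2C12, a mouse myoblast line that can leave the cell cycle reversibly, arrested in G0 by culture in suspension in 2% methylcellulose. Cells were fixed with 1% formaldehyde and the reaction was stopped with 0.125 M glycine. After sonication, DNA bound to PRDM2 was pulled down for 2 arrays and DNA bound to nucleosomes with H3K9me2 for 1 array. On each array the IP DNA carried the red dye and its own input DNA the green dye, with no exchange of dyes. The labels do not describe the antibodies, the fragment length or whether the 2 PRDM2 samples came from separate cultures, so the spread between them may be technical, and all 3 groups of DNA came from 1 cell line in 1 state with no cycling cells and no control antibody among the arrays used here.

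PRDM2, also called RIZ, is a zinc finger protein of the PRDM family whose PR domain is related to the SET domain of histone methyltransferases, and it is known as a tumour suppressor. Methylation of histone H3 at lysine 9 is a mark of repressed chromatin, and its dimethylated form, H3K9me2, covers silent genes and broad domains of inactive chromatin. In quiescent muscle cells, a cell cycle halt that can be undone has to be combined with silence of the differentiation programme.

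The probe sequences below show what was measured: the 10 members with the highest PRDM2 ratio, taken as the lower of the 2 arrays and leaving out probes without a gene name or with a predicted one. They are written as on the array, in lower case, and the letters of 5 short motifs described further on (the CA repeat CACACA, the words CCACC and CACCC, the word CCCAC, and a run of 5 C, on either strand) are in capitals. The strand of a probe and the genome build of its coordinates are not given in the sources used here.
Crh, chr3:19889923-19889982: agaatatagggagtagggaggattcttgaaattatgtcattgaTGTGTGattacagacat
Sntg2, chr12:30961096-30961155: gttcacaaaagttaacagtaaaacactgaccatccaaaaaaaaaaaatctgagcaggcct
Mrpl27, chr11:94471128-94471184: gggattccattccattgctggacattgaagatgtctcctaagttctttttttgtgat
Tnip3, chr6:65518195-65518254: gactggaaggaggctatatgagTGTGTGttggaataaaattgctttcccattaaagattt
Senp8, chr9:59547395-59547450: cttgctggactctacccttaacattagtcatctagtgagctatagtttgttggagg
Emx2, chr19:59509793-59509845: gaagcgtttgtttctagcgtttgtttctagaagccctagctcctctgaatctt
Oit1, chr14:7173009-7173060: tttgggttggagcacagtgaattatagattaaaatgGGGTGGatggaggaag
Cd320, chr17:33449947-33449998: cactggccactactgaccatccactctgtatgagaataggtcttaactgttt
Sfxn1, chr13:54078979-54079038: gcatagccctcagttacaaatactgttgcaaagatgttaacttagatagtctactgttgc
Mthfd1l, chr10:6374539-6374596: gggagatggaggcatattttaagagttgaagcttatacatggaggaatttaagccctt

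Of these 10 probes, 3 held at least 1 of the motifs. Most of the letters are ordinary mixed sequence, and a run of A stands in Sntg2 and a run of T in Mrpl27.

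Values are log2 ratios of IP over input, set to 0 at the median probe of each array. Members had a median of 5.22 on PRDM2 array 1, with a range of 4.25 to 8.54, against a median of -0.33 in the other eligible probes. On PRDM2 array 2 they had a median of 3.92, with a range of 2.96 to 8.10, against -0.37 in the other eligible probes. The limits that the choice set were 4.25 on array 1 and 2.96 on array 2, and 3563 probes lay above each, so that the members were 21.3% of the top probes of either array and 2805 probes were in the top 3% on array 1 alone and as many on array 2 alone. Just inside the limit of array 1 were Olfr768 and 1810059G22Rik at 4.25 and 4.26, and just outside it were 1700037H04Rik and Lrrc52, both at 4.25. Just inside the limit of array 2 were Cd180 and Spag4l, both at 2.96, and just outside it were Tjap1 at 2.96 and Hist1h2bm at 2.95, so that the edge of the group is a matter of hundredths of a log2 unit.

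The 10 highest members belonged to genes of several roles, and Mrpl27, Sfxn1 and Mthfd1l among them encode mitochondrial proteins. Crh, the gene of the corticotropin-releasing hormone, had 7.63 and 7.77 on PRDM2 arrays 1 and 2 and 4.18 on the H3K9me2 array. Sntg2, a syntrophin that binds the dystrophin complex, had 6.98 and 7.18 for PRDM2 and 3.003 for H3K9me2. Both of these probes had input far below the median probe, at -3.00 and -2.35 for Crh and -2.87 and -1.90 for Sntg2 on the PRDM2 arrays, so that their ratios rest on a dim denominator.

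Mrpl27, a protein of the mitochondrial ribosome, had the highest value of any member on PRDM2 array 2, 8.10, with 6.76 on array 1, but -1.58 for H3K9me2. Sfxn1, a mitochondrial serine carrier, likewise had 6.27 and 7.15 for PRDM2 and -0.78 for H3K9me2. These 2 probes lie below the median probe for H3K9me2, whereas the other 8 of the set lie above it. Tnip3, a partner of the NF-kappaB inhibitor A20, had 6.68 and 6.65 for PRDM2 and 2.93 for H3K9me2. Senp8, the protease that acts on NEDD8, had 6.63 and 7.30 for PRDM2 and 3.94 for H3K9me2. In both genes all 3 arrays were high.

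Emx2, a homeobox factor of forebrain and urogenital development, had 8.01 and 6.40 for PRDM2 but only 0.67 for H3K9me2. Oit1 had 6.94 and 6.31 for PRDM2 and 2.02 for H3K9me2. Cd320, the receptor for vitamin B12 bound to transcobalamin, had 6.85 and 6.31 for PRDM2 and 3.26 for H3K9me2. Mthfd1l, a mitochondrial enzyme of one-carbon metabolism, had 7.97 and 6.26 for PRDM2 and 1.95 for H3K9me2, so that its 2 PRDM2 arrays differed more than those of Crh or Sntg2.

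Signal limits touched few members. The IP signal of all 758 members was well above background on both PRDM2 arrays, against 62.6% of the other eligible probes. The choice of high ratios over clear input largely fixed this, so nothing is read from it. It was saturated on PRDM2 array 1 for 4 members, Angptl1, Itln1, Gpx3 and Rnf34, whose ratios on that array are lower bounds. An outlier flag on any array was carried by 33 members (4.35%), against 0.402% of the other eligible probes. Without such spots the count of members was 749.

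**Figure D1:**
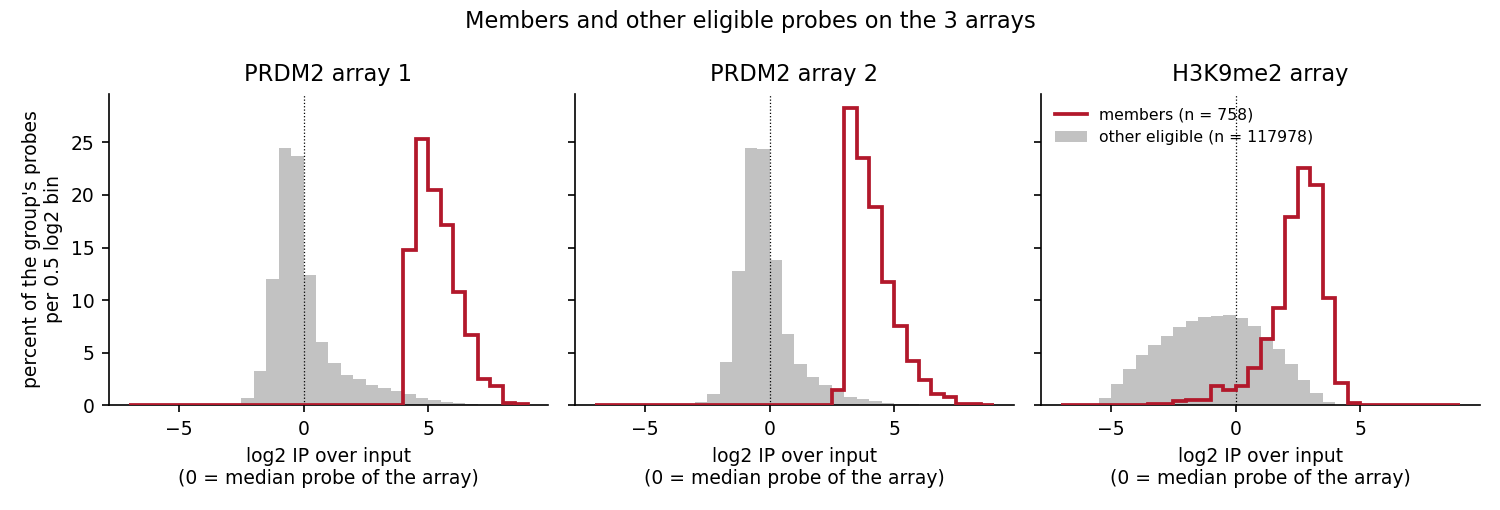
Share of the probes of each group, in percent per 0.5 log2 bin, over the log2 ratio of IP over input on each array, with the 758 members as a red line and the 117978 other eligible probes in grey. The 2 PRDM2 arrays chose the members, so their separation there is fixed, while on the H3K9me2 array the members centre on 2.62 and the other eligible probes on -0.84.

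H3K9me2, which the choice of members did not use beyond the input flag, was high on most members. Of the 758, 679 (89.6%, exact Clopper-Pearson 95% interval 87.2 to 91.7%) were at least 2-fold over the median probe, against 19.8% of the other eligible probes, and 561 (74.0%) were at least 4-fold over it, against 7.98%. The members' H3K9me2 ratio had a median of 2.62, with a range of -3.45 to 4.64, against a median of -0.84 in the other eligible probes, a difference of 3.46 on the log2 scale. Of the members, 743 (98.0%) lay above the median of the other eligible probes and 350 (46.2%) were in the top 3% of eligible probes for H3K9me2. There is 1 H3K9me2 array, so the difference has no replicate check and no test, and the interval covers counting over probes only, which share arrays and DNA fragments and are not independent.

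The size of this difference was smaller under a second processing that changed the background correction, the normalization within the array and, through these, the set of members. With normexp background correction and loess in place of the processed signals, 21.4% of the members were at least 2-fold over the median probe, against 0.549% of the other eligible probes, and the difference of medians was 0.54. That setting narrowed the spread of all eligible probes, whose H3K9me2 ratios had a SD of 0.402 under it and of 2.01 with the processed signals. It also changed who was a member: 552 probes met the rule, of which 310 (56.2%) were among the 758, 40.9% of these. With the set held fixed, the original 758 members had a median H3K9me2 ratio of 0.62 under normexp and loess. Of them 28.8% were at least 2-fold, and their median stood at percentile 97.9 of eligible probes. The normexp offset was 50. The median member stood at percentile 96.98 of eligible probes for H3K9me2 under that setting, at 96.3 with the processed signals and at 96.2 in the value table that the authors deposited. Among probes with IP signal well above background on the H3K9me2 array alone the difference was 2.79, since 99.5% of the members but 76.8% of the other eligible probes had such signal.

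The probes that were in the top 3% on only 1 of the PRDM2 arrays lay between these groups. Of those on array 1 alone, 74.6% were at least 2-fold over the median probe for H3K9me2, with a median of 2.06. Of those on array 2 alone, 46.9% were, with a median of 0.86. Their other PRDM2 array stood at a median of 0.56 on array 2 for the first set and 0.98 on array 1 for the second, well under the limits. Chosen on a single PRDM2 array, 3563 probes each, the group had 77.8% at 2-fold without array 2 and 55.96% without array 1, and H3K9me2 differences of 3.09 and 2.18. The 3 arrays share a platform, a dye layout and probes, and over all 237203 probes PRDM2 arrays 1 and 2 had a Pearson correlation of 0.650 with each other and of 0.592 and 0.524 with the H3K9me2 array, as a description across probes.

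**Figure D2:**
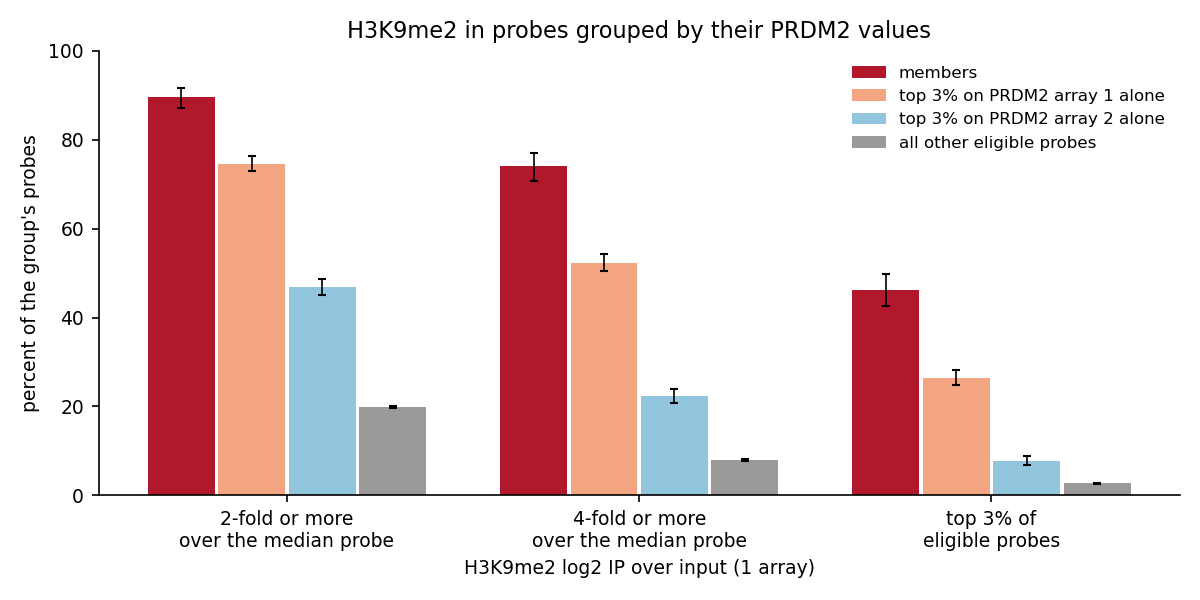
Share of each group's probes, in percent with exact 95% intervals, that reached 2-fold or 4-fold over the median probe or the top 3% of eligible probes on the H3K9me2 array. The 4 groups are the members, the probes in the top 3% on 1 PRDM2 array alone, and all other eligible probes, which include those last 2 groups. The members stand highest for all 3 measures, at 89.6%, 74.0% and 46.2%.

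Within the members, a higher PRDM2 ratio did not go with a higher H3K9me2 ratio on both arrays. Across the 758 members the Spearman correlation with H3K9me2 was 0.31 for PRDM2 array 1 and -0.05 for PRDM2 array 2, and that between the PRDM2 arrays was 0.14, where the choice of members had cut the range of both. Across all 118736 eligible probes the same 3 values were 0.53, 0.45 and 0.51. When the members were ranked by the lower of their PRDM2 ratios and cut into 4 groups of 189 or 190, the median H3K9me2 ratio was 2.54, 2.78, 2.61 and 2.56 from the lowest group to the highest, and the share at least 2-fold over the median probe was 92.1%, 95.8%, 87.3% and 83.2%. These are descriptions across probes of the same arrays. Among probes with no member and no probe of 55% GC or more within 500 bp, 90.7% of 569 members were at least 2-fold for H3K9me2, against 21.2% of 91106 other eligible probes.

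The 6 named members with the highest H3K9me2 ratios varied in PRDM2, and 3 of them were in the lowest part of the group on array 2. Tmem85, a subunit of the endoplasmic reticulum membrane complex now called Emc4, had 4.64 for H3K9me2, the highest of all members, with 7.84 and 3.09 on PRDM2 arrays 1 and 2. Hrb, a nucleoporin-like protein now called Agfg1, had 4.52 for H3K9me2, with 7.74 and 5.96 for PRDM2. Igfbp1, a liver-secreted binding protein of insulin-like growth factors, had 4.42 for H3K9me2, with 6.64 and 4.88 for PRDM2. All 3 probes were above the member medians on array 1, but Tmem85 was near the limit on array 2.

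Tnfrsf21, the death receptor DR6, had 4.39 for H3K9me2 and the highest PRDM2 value of any member on array 1, 8.54, with 4.95 on array 2. Hip1r, which links clathrin to actin, and Stil, a factor of centriole duplication, both had 4.23 for H3K9me2. Their PRDM2 values were 5.22 and 3.37 for Hip1r and 6.44 and 3.24 for Stil, close to the limit on array 2. The probes of the 3 highest for H3K9me2 are shown.
Tmem85, chr2:112167955-112168006: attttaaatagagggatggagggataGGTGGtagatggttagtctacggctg
Hrb, chr1:82719660-82719719: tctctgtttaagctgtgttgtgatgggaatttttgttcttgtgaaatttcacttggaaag
Igfbp1, chr11:7096463-7096522: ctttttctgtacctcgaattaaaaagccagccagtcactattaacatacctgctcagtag

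A small set of members combined a high PRDM2 ratio with a low H3K9me2 ratio, which does not show that the mark was absent. Of the 758, 38 (5.01%) were below the median probe for H3K9me2, against 64.3% of the other eligible probes, and 13 (1.72%) were at or below -1, against 47.2%. The 38 had median PRDM2 ratios of 5.13 and 4.62 on arrays 1 and 2, while the 679 members at least 2-fold over the median probe had 5.23 and 3.87. Their input on the H3K9me2 array had a median of 0.17 relative to the median probe, against 1.12 in the 679.

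Npas2, a circadian factor that pairs with BMAL1, had the lowest H3K9me2 ratio among members with an approved gene name, -2.60, with 4.44 and 3.11 for PRDM2. Its IP signal was not well above background on the H3K9me2 array, so that value is an upper bound, and the same holds for Rarb, a retinoic acid receptor, with -2.10 for H3K9me2 and 4.56 and 3.49 for PRDM2, and for 2 further members, Kcnj8 and 4631426J05Rik. March3, a membrane ubiquitin ligase, had -2.44 for H3K9me2 with 4.33 and 5.11 for PRDM2. The IP signal of this probe was well above background on every array.

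Cbl, the ubiquitin ligase of activated receptor tyrosine kinases, had -1.95 for H3K9me2, with 5.40 and 5.23 for PRDM2. Csl had -2.22 for H3K9me2, with 5.64 and 4.67 for PRDM2. Gpr81, the lactate receptor, had -1.82 for H3K9me2, with 5.68 and 5.11 for PRDM2. All 3 had clear IP signal on the H3K9me2 array, so their low ratios were measured and not set by background. The probes of Cbl and Gpr81 are shown for comparison with the high ones above.
Cbl, chr9:43984140-43984195: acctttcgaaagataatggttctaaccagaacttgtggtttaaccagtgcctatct
Gpr81, chr5:124140051-124140105: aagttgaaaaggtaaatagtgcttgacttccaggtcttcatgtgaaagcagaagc

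Input DNA differed between members and other eligible probes. On the H3K9me2 array, the input of the members had a median of 1.04 relative to the median probe, against -0.25 in the other eligible probes, a difference of 1.29. On the PRDM2 arrays, where input is the denominator of the choice, it had medians of 0.64 and 0.87, against -0.05 and -0.02. Of the members, 584 (77.0%) had input above the median probe on the H3K9me2 array, against 41.7% of the other eligible probes. The IP signals, the numerator of the choice, had medians of 6.15 and 5.21 over the median probe, against -0.27 and -0.30. Of the members, 51 (6.73%) had input more than 1 log2 unit below the median probe on both PRDM2 arrays, against 8.90%. The 51 had a median H3K9me2 ratio of 2.83, and the 508 members with input above the median probe on both PRDM2 arrays had 2.58. Measured against eligible probes of the same class of input on the H3K9me2 array, the H3K9me2 difference was 2.96, a comparison chosen after the values were seen. With normexp and loess the difference in input was 0.041, and with members chosen on a single array it was 0.58 without array 1 and 0.78 without array 2.

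GC content was shifted inside the window. Members had a median GC content of 41.1% and a median length of 55 nt, against 39.0% and 58 nt in the other eligible probes. In 4 GC classes of equal width from low to high, 0.462%, 0.424%, 0.662% and 1.14% of eligible probes were members. The median H3K9me2 ratio of the members changed little over these classes, at 2.70, 2.69, 2.59 and 2.58, while that of the other eligible probes was -1.12, -1.04, -0.76 and -0.37, so that the difference was 3.83, 3.74, 3.35 and 2.95. Input on the H3K9me2 array was higher in the classes of higher GC in both groups, at 0.26, 0.58, 1.12 and 1.42 in the members and -1.13, -0.42, 0.14 and 0.57 in the other eligible probes. Measured within classes 1 percent of GC wide, the H3K9me2 difference was 3.36.

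Members rarely lay near other members along the genome. Only 8 of the 758 (1.06%) had another member within 1000 bp, measured between probe centres, whereas 2604 other eligible probes (2.21%) had a member that near. With the top 2% in place of the top 3%, 402 probes were chosen and none had another within 1000 bp (0%), and with the top 5%, 1639 were and 4.09% had. Chosen on a single array, 3563 probes each, 11.2% had one without array 1 and 12.3% without array 2. A larger set places more members near any probe. For these other sets the share of other eligible probes near a member was not computed, so their shares are not read as clustering. Within 500 bp of another member lay 4 members, and within 50000 bp 58 (7.65%), against 11.1% of the other eligible probes. Sonicated fragments can cover several neighbouring probes, but their length is not stated here. The neighbours described next are probes that are not members, so those among them that were eligible had missed the PRDM2 limit on at least 1 array.

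These neighbours were close to the median probe. The 2389 non-member probes within 500 bp of a member had median PRDM2 ratios of -0.09 and -0.08 on arrays 1 and 2 and a median H3K9me2 ratio of -0.15. The 189902 non-member probes within 500 bp of another eligible probe had -0.08, -0.08 and -0.16 on the same arrays. The differences of medians were -0.009 and 0.0006 for PRDM2 and 0.008 for H3K9me2. The nearest neighbours, at 100 to under 200 bp, had medians of -0.07, -0.14 and -0.16 around members (790 probes) and of -0.16, -0.18 and -0.33 around other eligible probes (111047 probes). Of those 790, 19.5% were at least 2-fold over the median probe on both PRDM2 arrays, against 13.9% around other eligible probes, and at 400 to under 500 bp the shares were 19.4% and 18.97%. Where the neighbours had 45% GC or more, the PRDM2 difference, averaged over the arrays, was 0.13.

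**Figure D3:**
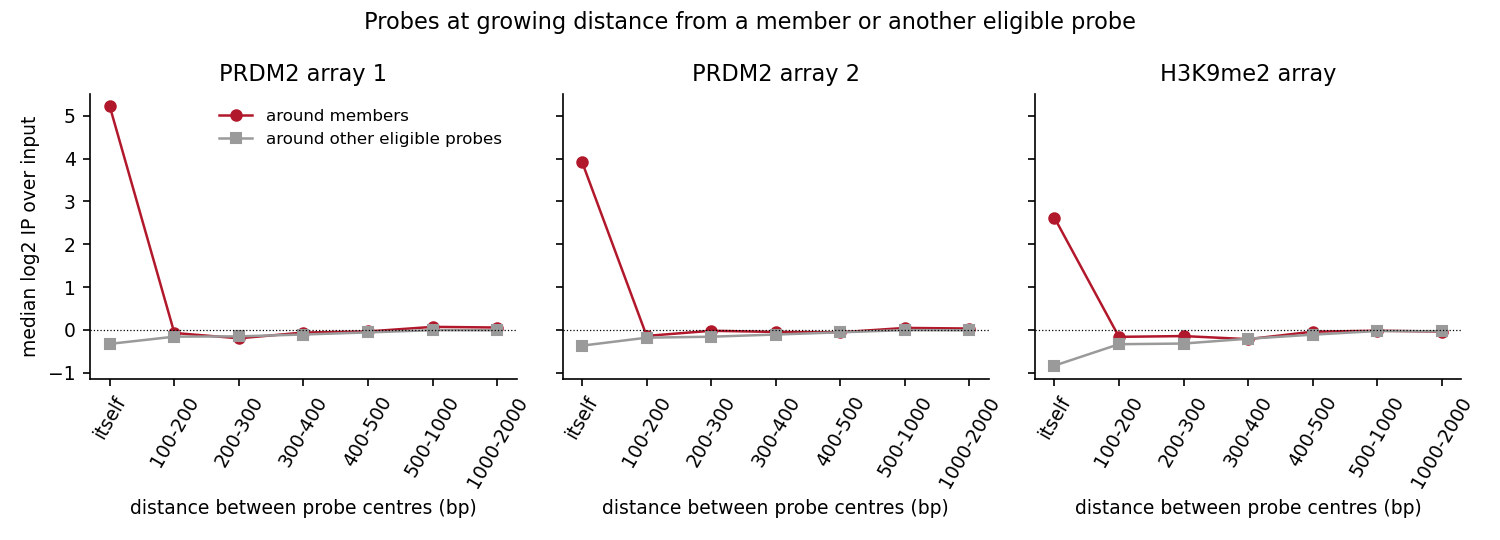
Median log2 ratio of IP over input on each array for members (red) or other eligible probes (grey) themselves and for non-member probes at growing distance from them, in bp between probe centres. The members' medians of 5.22, 3.92 and 2.62 give way to -0.07, -0.14 and -0.16 at 100 to under 200 bp.

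The nearest flanks were also read member by member. Of the 758 members, 501 had a probe within 500 bp on each side, and in 328 of these (65.5%) neither nearest flank was 2-fold over the median probe on both PRDM2 arrays, against 74.2% of the other eligible probes with 2 flanks, a lower share around members. In 317 (63.3%) the member was at least 4-fold above both flanks on both arrays, and in 59 (11.8%) it was not above its flanks on both arrays. The smaller of the gaps to the higher flank had a median of 2.80 on the log2 scale. For H3K9me2, 53.1% of the 501 had neither flank at 2-fold, against 56.8% of the other eligible probes, so the flanks of members were no quieter than those of other probes. Of the 448 that were themselves at least 2-fold for H3K9me2, 229 (51.1%) had neither flank at 2-fold. Because members were chosen for their height, the gaps themselves are a description.

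Spots beside the members on the slide were near the median probe as well. Spots near a member had medians of 0.04 and 0.04 for PRDM2 and 0.02 for H3K9me2, against -0.005, -0.005 and -0.008 around other eligible probes.

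The other probes of the members' genes were ordinary too. Of the genes with a member, 716 had further eligible probes, 5868 in all, whose median ratios were -0.32 and -0.37 for PRDM2 and -0.86 for H3K9me2. Eligible probes of the 14804 named genes without a member had -0.33, -0.37 and -0.84. At least 2-fold on both PRDM2 arrays were 6.44% of the further probes of member genes, against 6.26%, and at least 2-fold for H3K9me2 were 19.3%, against 19.8%. A gene with a member had a median of 9 eligible probes and a gene without one had 7, so genes with more probes had more chances to hold a member.

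The 8 members with another within 1000 bp formed 4 pairs, at Slc2a3, Slc13a2, Capn12 and B930011P16Rik. Slc13a2, a sodium-coupled carrier of dicarboxylates and citrate, had 5.84 and 6.28 for PRDM2 at its first member, and 5.34 and 3.25 at the second, 472.5 bp further on. The probe between them, which was not a member, had 5.01 and 2.32, and H3K9me2 was 2.64, 2.24 and 2.58 over the 3 probes in order. The probe 108 bp before the first member had 0.83 and -0.63 for PRDM2 and 1.21 for H3K9me2. Here a run of adjacent probes was high, with a sharp edge on its left side, and the second member had input of 3.80 and 4.60 on the PRDM2 arrays, the first 0.15 and 0.16. The 4 probes are shown in order, edge first, as the clearest run.
Slc13a2, chr11:78239018-78239077, not a member: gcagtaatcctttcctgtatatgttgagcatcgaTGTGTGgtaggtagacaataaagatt
Slc13a2, chr11:78239126-78239185, member: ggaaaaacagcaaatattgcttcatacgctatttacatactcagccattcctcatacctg
Slc13a2, chr11:78239239-78239293, not a member: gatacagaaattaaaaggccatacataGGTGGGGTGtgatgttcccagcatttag
Slc13a2, chr11:78239603-78239653, member: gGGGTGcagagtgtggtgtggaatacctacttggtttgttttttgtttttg

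Slc2a3, the glucose transporter GLUT3, held the only pair with no probe in between. Its members, 183 bp apart, had 4.57 and 3.90, and 4.80 and 3.15, for PRDM2 and 3.09 and 2.86 for H3K9me2. Both hold the same motif letters, and the next probe, 297 bp from the first, had 1.58 and 1.55 for PRDM2 and -2.81 for H3K9me2. A probe at 424.5 bp, of 46% GC and so not eligible, had 5.69 and 1.74 for PRDM2 and 2.64 for H3K9me2.
Slc2a3, chr6:122706804-122706850, member: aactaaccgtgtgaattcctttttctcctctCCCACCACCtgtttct
Slc2a3, chr6:122706984-122707036, member: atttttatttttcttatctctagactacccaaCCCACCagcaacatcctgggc

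Capn12, a calpain protease, had members 563.5 bp apart at 4.28 and 4.33, and 5.003 and 5.73, for PRDM2 and 3.17 and 2.25 for H3K9me2, and the 2 probes between had medians of 3.43 and 2.73 for PRDM2. The other genes with 2 members had them further apart. Xpo6, the nuclear export receptor of actin, had 4.52 and 3.72 at one and 7.06 and 5.88 at the other, 3817 bp apart, with medians of 1.54 and 1.14 over the 14 probes between. Agbl3 had its members 3335 bp apart, and the 17 probes between had medians of -0.24 and -0.24.

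**Figure D4:**
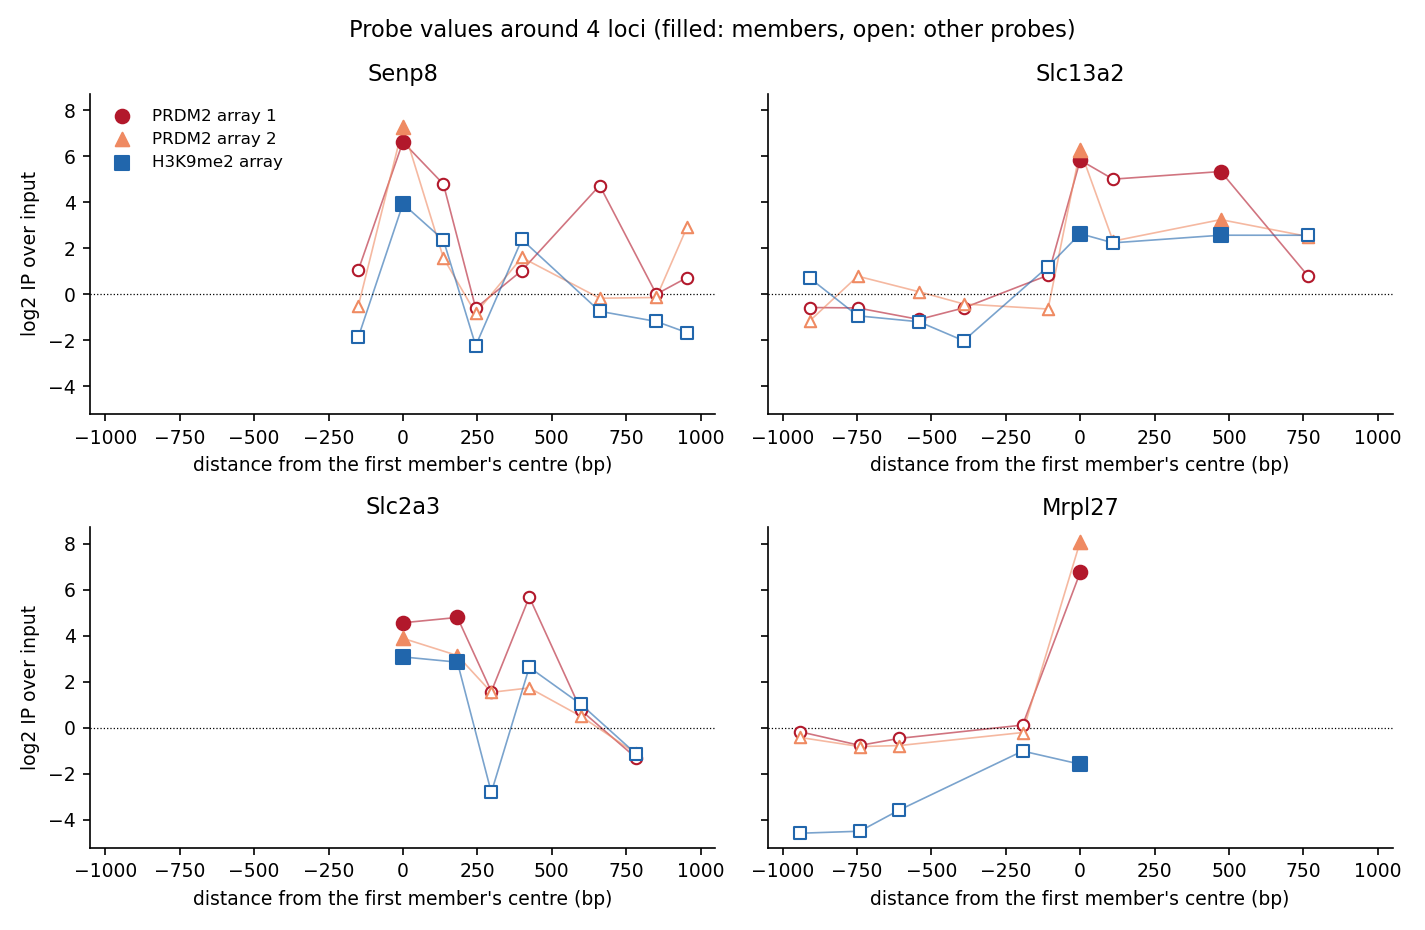
Log2 ratio of IP over input of each probe against its distance, in bp, from the centre of the first member at Senp8, Slc13a2, Slc2a3 and Mrpl27, on PRDM2 array 1 (circles), PRDM2 array 2 (triangles) and the H3K9me2 array (squares), with filled marks for members. At Senp8 all 3 arrays are above 1 at 136 bp from the member, below 0 at 244.5 bp and above 1 again at 399.5 bp, at Slc13a2 and Slc2a3 adjacent probes are high, and at Mrpl27 PRDM2 is high with H3K9me2 at -1.58.

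In all, 13 gene names had 2 members each and none had more. Mcoln2, a lysosomal cation channel, had 6.36 and 3.79, and 7.21 and 3.78, for PRDM2 with 3.35 and 3.91 for H3K9me2, the highest H3K9me2 pair of the named genes. Nfyc, a subunit of the CCAAT-binding factor NF-Y, had 4.35 and 3.58, and 5.84 and 5.52, with 2.17 and 3.34 for H3K9me2. Thumpd1, Gapvd1 and Pdcl2 completed the named set, and the 3 predicted names were 4930503B20Rik, B930011P16Rik and BC027057. Among the members of these 13 names, Thumpd1 held the only one under 2-fold for H3K9me2, at 0.63.

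Members were spread over the autosomes and over the promoter. They made up between 0.309% of eligible probes on chromosome 15 and 0.824% on chromosome 7, with 15 and 78 members, and were found on all 19 autosomes. The median H3K9me2 ratio of members by chromosome ran between 1.94 on chromosome 15 and 2.98 on chromosome 17. Distance to a transcription start could be measured for 510 members (67.3%) and 68.6% of the other eligible probes, through probes found letter for letter in RefSeq promoter windows (GRCm38.p6), with distances taken in array coordinates. The median distance was 947 bp in both groups, and 13.9% of members and 14.01% of the others lay within 500 bp upstream of the start. The median H3K9me2 ratio of members lay between 2.34 and 2.79 in every distance class, that of the others between -1.04 and -0.61. Whether a probe lies in an exon, an intron or a UTR was not analysed here.

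Names of genes were those on the array. Of the 758 members, 740 had a gene name and 18 had none, and the 740 carried 727 names, of which 596 were current symbols, 118 were synonyms of 1 gene and 13 were unmatched or ambiguous. Of the names, 68 were of the predicted or clone kind. Named eligible probes were members in 0.640% of cases, and this share is the measure for the gene lists. For the counts of members at least 2-fold for H3K9me2 in each list, the measure is 663 of all 740 named members. The lists were written with earlier results of these data known and were not tested, and most hold so few members that a share can move much with 1 probe.

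Genes that restrain proliferation had members in 7 of 341 eligible probes (2.05%), of which 5 were at least 2-fold over the median probe for H3K9me2. Sesn2, a stress-induced sestrin, had 4.90 and 6.61 for PRDM2 and 1.84 for H3K9me2. Trp73, the p53 relative p73, had 4.34 and 5.54 for PRDM2 and 1.99 for H3K9me2. Gadd45b, a growth arrest and DNA damage gene, had 5.23 and 4.58 for PRDM2 and 2.91 for H3K9me2. Phlda3, a p53 target that restrains AKT, had 4.38 and 4.16 for PRDM2 but 0.80 for H3K9me2. Of the 4, Phlda3 alone was under 2-fold for H3K9me2.

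Cyclins, their kinases and the E2F and RB family had 4 of 483 probes (0.828%), all at least 2-fold for H3K9me2. Cks2, a subunit that binds cyclin-dependent kinases, had 4.74 and 5.03 for PRDM2 and 2.50 for H3K9me2. Rbl1, the pocket protein p107, had 5.72 and 3.69 for PRDM2 and 3.15 for H3K9me2. Cks2 was close to the members' median for H3K9me2 and Rbl1 was near their upper quartile of 3.21. DNA replication and repair genes had 7 of 827 probes (0.846%), among them Mcm5, a subunit of the replicative helicase, with 5.52 and 4.71 for PRDM2 and 3.47 for H3K9me2. Mitosis genes had 3 of 659 (0.455%), among them the checkpoint kinase gene Bub1 with 5.15 and 4.34 for PRDM2 and 3.02 for H3K9me2.

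Developmental transcription factors had several members. The Sox, Tbx, Gata, Fox, Zic and Klf factors had 10 of 742 probes (1.35%), of which 7 were at least 2-fold for H3K9me2. Tbx5, a T-box factor of forelimb and heart, had 4.41 on both PRDM2 arrays and 2.47 for H3K9me2, while Tbx4, its hindlimb relative, had 4.91 and 5.07 for PRDM2 and -0.79 for H3K9me2. Foxp1, a forkhead repressor, was also below the median probe for H3K9me2, at -0.91, with 5.16 and 4.63 for PRDM2. Both Tbx4 and Foxp1 were near the H3K9me2 median of the other eligible probes of this list, -0.87. The other homeobox factors had 10 of 1130 probes (0.885%), 8 of them at least 2-fold, among them Otx1, a forebrain factor, with 4.78 and 4.72 for PRDM2 and 2.53 for H3K9me2. The Hox genes had 3 of 342 (0.877%), all at least 2-fold, among them Hoxb5, a patterning factor, with 4.99 and 3.03 for PRDM2 and 2.55 for H3K9me2.

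The myogenic regulators had members at about the share of all named probes, 3 of 486 (0.617%), and these were Cav1, Snai2 and Hey1, not the myogenic bHLH factors themselves. Snai2, a repressor expressed in myoblasts, had 6.48 and 4.01 for PRDM2 and 3.54 for H3K9me2. Hey1, a target of Notch signalling, had 5.88 and 3.59 for PRDM2 and 2.49 for H3K9me2. Cav1, a coat protein of caveolae, had 4.93 and 4.49 for PRDM2 and only 0.39 for H3K9me2. Muscle structure genes had 3 of 765 probes (0.392%), all at least 2-fold for H3K9me2, and Csrp3, the muscle LIM protein, had 6.199 and 4.46 for PRDM2 and 3.11 for H3K9me2.

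Signalling pathways had few members each. The Notch pathway had 4 of 288 probes (1.39%), the FGF pathway 5 of 469 (1.07%), the Wnt pathway 4 of 537 (0.745%) and the TGF-beta and BMP pathway 3 of 602 (0.498%). Nog, the BMP antagonist noggin, had 5.19 and 7.23 for PRDM2 and 1.70 for H3K9me2. Fst, the activin antagonist follistatin, had 5.33 and 4.68 for PRDM2 and 1.498 for H3K9me2. Rspo3, a ligand that strengthens Wnt signals, had 6.24 and 6.30 for PRDM2 and 0.76 for H3K9me2. These 3 were below the members' median for H3K9me2. In the same Wnt and TGF-beta lists, Kremen2 at 2.15 and Skil at 1.81 were also below it, while Sfrp5 at 3.32 and Fzd7 at 3.01 were above it. Fgf21, a metabolic hormone, had 5.68 and 4.22 for PRDM2 and 3.07 for H3K9me2, and all 5 FGF members and all 4 Notch members were at least 2-fold.

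Among chromatin genes the counts were 2 of 258 for Polycomb, 1 of 187 for H3K9 methylation and 2 of 69 for the PRDM family. Wiz, a zinc finger partner of the H3K9 methyltransferases G9a and GLP, had 4.97 and 4.80 for PRDM2 and 3.28 for H3K9me2. Prdm8, a relative of PRDM2, had 5.70 and 3.04 for PRDM2 and 2.79 for H3K9me2, and Prdm16, the switch factor of brown fat, had 5.43 and 3.29 for PRDM2 but 0.18 for H3K9me2. The imprinted genes had 2 of 197, Grb10, an inhibitor of insulin receptor signalling, with 5.99 and 5.999 for PRDM2 and 3.49 for H3K9me2, and Phlda2, which restrains placental growth, with 5.15 and 6.52 for PRDM2 and 2.99 for H3K9me2. No probe of the canonical histone genes was a member, 0 of 193, which allows a share of up to 1.55%. That limit is above the 0.640% of all named eligible probes, so the count is not read as a lack of members. A probe of the histone gene Hist1h2bm, with 5.11 and 2.95 for PRDM2, was just outside the limit of array 2.

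Lists of genes of other tissues differed in their share of members. Leukocyte antigens and immune receptors had 23 of 2121 probes (1.08%). All 23 were at least 2-fold for H3K9me2, as were 663 of all 740 named members. Their median was 2.88, beside 2.62 in all named members and -0.66 in the other eligible probes of the list. Tlr9, a receptor of unmethylated DNA, had 5.93 and 4.97 for PRDM2 and 3.23 for H3K9me2, and Ly86, a partner of the B cell receptor RP105, had 5.76 and 5.04 for PRDM2 and 3.10 for H3K9me2. Cytokines and chemokines had 2 of 1003 (0.199%), Il17b and Ifna1. Olfactory receptors had 22 of 4259 (0.517%), of which 19 were at least 2-fold for H3K9me2, with a median of 2.98, against 0.13 in their other eligible probes, which were higher than the -0.84 of all named ones. Olfr273 had 5.93 and 6.81 for PRDM2 but 0.07 for H3K9me2, while Olfr1390 had 4.86 and 6.11 for PRDM2 and 3.85 for H3K9me2.

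Further lists lay near the background. Solute carriers had 18 of 2579 probes (0.698%), ubiquitin and proteasome genes 19 of 2376 (0.800%), zinc finger proteins 13 of 1827 (0.712%), extracellular matrix genes 12 of 1545 (0.777%), ion channels 11 of 1421 (0.774%) and neurotransmitter receptors and synapse genes 9 of 1152 (0.781%). Genes that all cells use were members as well. Ribosome and translation genes had 8 of 1205 probes (0.664%), all 8 at least 2-fold for H3K9me2. Their median H3K9me2 ratio was 1.99, beside 2.62 in all named members. Rps3, the highest of them by the lower PRDM2 value, had 6.08 and 7.09 for PRDM2 and 1.09 for H3K9me2. Rps13, a protein of the small ribosomal subunit, had 4.46 and 4.04 for PRDM2 and 3.62 for H3K9me2. Mitochondrial respiration and ribosome genes had 9 of 1094 (0.823%), of which 7 were at least 2-fold, with Mrpl27 and Mrpl23 below the median probe for H3K9me2 at -1.58 and -0.02.

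**Figure D5:**
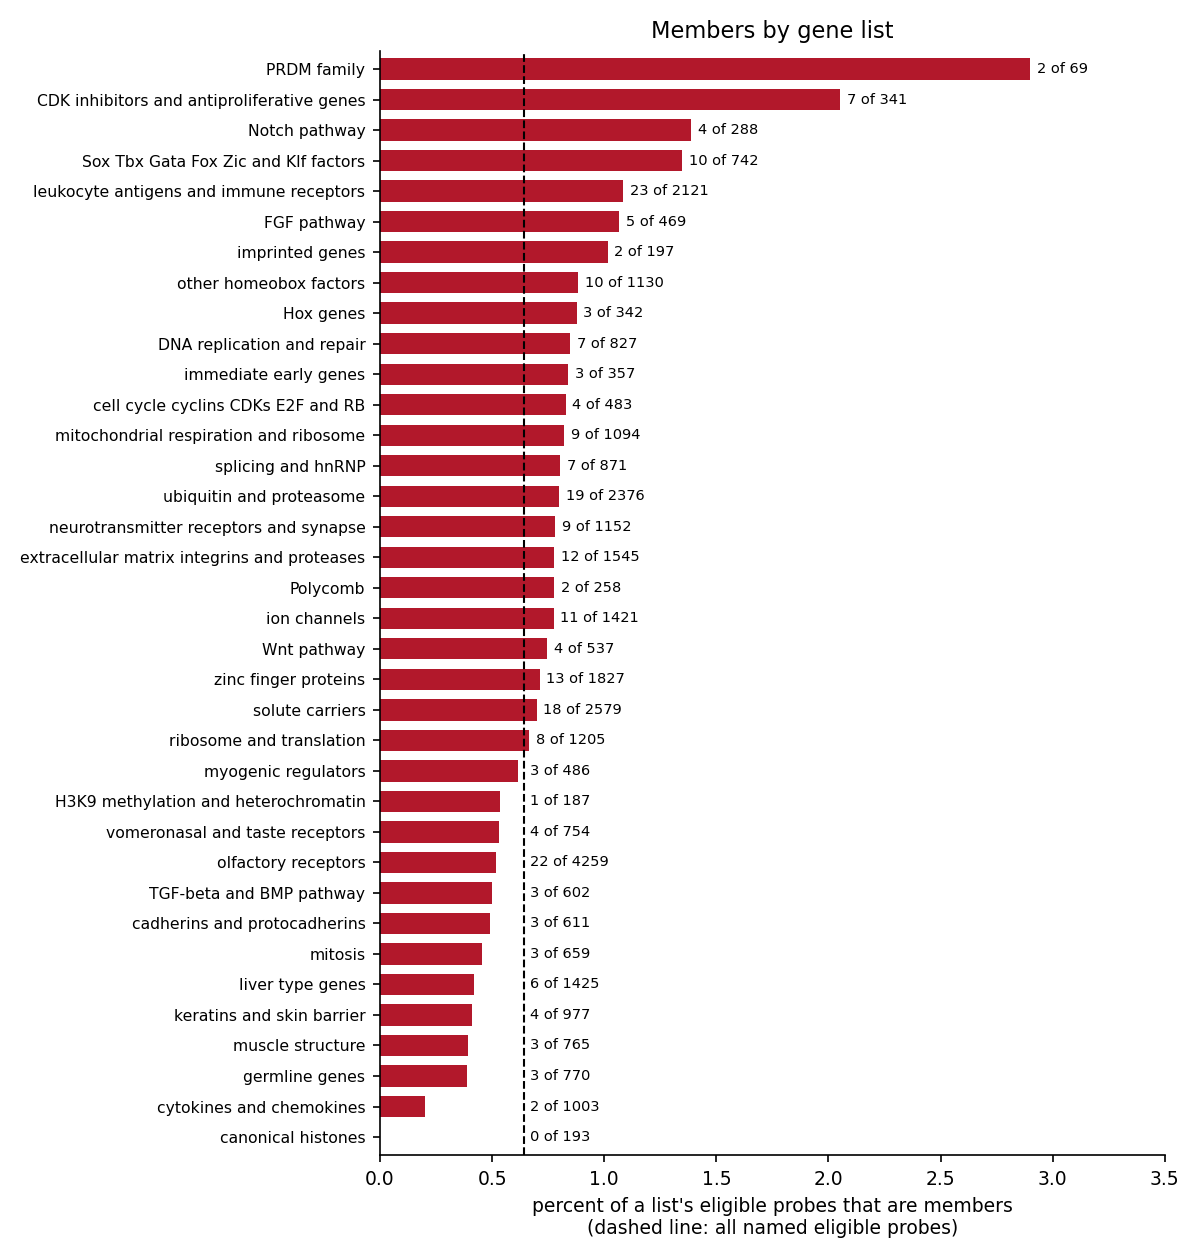
Members as a percent of the eligible probes of each of 36 gene lists, with the counts written beside the bars and a dashed line at 0.640%, the share over all named eligible probes. The PRDM family and the genes that restrain proliferation stand highest, at 2 of 69 and 7 of 341 probes, and the canonical histones at 0 of 193.

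Some short words were more frequent in the members than in the other eligible probes, whose median GC content was lower, and the shares were not matched for GC. Shares of all 5-letter words were set side by side, both strands counted, and the motifs below were chosen after those shares were seen, so they describe these members. The word CCACC (or GGTGG) was in 136 members (17.9%, exact 95% interval 15.3 to 20.9%), against 5.10% of the other eligible probes. CACCC (or GGGTG) was in 14.8%, against 5.07%, and CCCAC (or GTGGG) in 15.7%, against 5.82%. These words overlap each other in letters. The CA repeat CACACA (or TGTGTG) was in 149 members (19.7%), against 4.13%, and a run of 5 C (or 5 G) in 5.67%, against 2.33%. At least 1 of the 5 was in 387 members (51.1%), against 18.6% of the other eligible probes. The GA repeat GAGAGA (or TCTCTC) was in 9.76%, against 4.57%.

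A CpG was in 248 members (32.7%, exact 95% interval 29.4 to 36.2%), against 42.45% of the other eligible probes. The E-box CAGCTG, which reads the same on both strands, was in 6 members (0.792%, interval 0.291 to 1.71%), an interval that holds the 1.32% of the other eligible probes. A match in letters is not a site of binding, and nothing on a factor follows from its presence or absence.

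The H3K9me2 ratio of the members depended little on these letters. Members with at least 1 of the 5 motifs had a median of 2.73 and those with none had 2.53, while other eligible probes with 1 had -0.36 and those with none had -0.95. Among probes with none of the 5 motifs the difference between members and other eligible probes was 3.48, a comparison chosen after the values were seen. Members with a CpG had 2.54 and those without had 2.68, against -1.25 and -0.54 in the other eligible probes. The same words went with higher PRDM2 in probes of 45 to under 55% GC, which the choice did not use: with CCACC, 4118 probes had medians of 1.46 and 1.21 on PRDM2 arrays 1 and 2 and 0.77 for H3K9me2, and without it 45726 probes had 0.41, 0.47 and 0.25. With the CA repeat, 1860 probes had 1.63 and 1.00 for PRDM2 and 0.79 for H3K9me2, and without it 47984 had 0.45, 0.51 and 0.28. These are probes of the same 3 arrays, and those with and without a word were not matched for GC inside this window. Whether the letters act on the measurement or on the chromatin was not tested.

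As a background of the PRDM2 test, limma called 10677 of 237203 probes higher in IP than in input over both arrays at a Benjamini-Hochberg adjusted p under 0.05, which is 4.5%. Of the members 389 were among them, and as the choice of members used the same ratios, nothing is read from that count. With the median eligible probe as 0 the call covered 24077 probes.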

How the data were processed

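Agilent promoter arrays with 2 colours were analysed, 2 for PRDM2 and 1 for H3K9me2. The deposited scanner files hold spot intensity for IP (red) and input (green), background and saturation flags, and a log10 ratio, made with Feature Extraction 10.5.1.1 and its ChIP protocol per the file headers. The value table deposited by the authors was read as log2 from its comparison with the scanner files; no label or header names the tool behind it. Processed signals were used without loess, log2 ratios were centred on each array's median probe, and control spots were left out.

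The members and the gene lists were chosen with earlier results of these data known. Named genes were those highest for PRDM2 on the lower of both arrays, those with the highest and lowest H3K9me2, genes with most members, and up to 4 members a list by the lower PRDM2 value. The few others were chosen after their values were seen. limma 3.58.1 in R 4.3.3 gave Benjamini-Hochberg adjusted p-values over all probes, which measure only the spread between the 2 PRDM2 samples. Python 3.11.15, pandas 2.3.3, numpy 2.4.6, scipy 1.17.1 and matplotlib 3.10.9 did the rest, with exact Clopper-Pearson intervals for counting error only. The number of arrays limits the precision. The code of the limma fit was tested on simulated data. Alternatives covered background correction, the value table, the top share, GC window, flags, distances and single arrays. The result of 1 named member is not reported here.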

Additional observations from a re-analysis of the deposited data

How the results depend on the processing

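Of 70 alternatives, 29 moved a value by less than its margin (its interval or spread, or 1.5 times for a count) and 41 by more, and the cause was not tested. The H3K9me2 and input differences kept their sign in all that were run, while the small neighbour difference did not. The count of members, 758, was 402 with the top 2%, 1639 with the top 5%, 445 for 35 to under 40% GC and 298 for 40 to under 45% GC. All 758 had IP well above background on both PRDM2 arrays. Where the top 3% was taken anew among eligible probes with such signal, the count was 435. It was 3563 on either PRDM2 array alone. The share with H3K9me2 at least 2-fold, 89.6%, was 21.4% with normexp and loess, 92.3% at 1.5-fold, 82.2% at 3-fold and 55.96 to 77.8% on a single array. The H3K9me2 difference, 3.46, was 0.54 with normexp and loess, 3.27 with the top 5%, 3.18 with IP above background on the PRDM2 arrays and 2.79 with it on the H3K9me2 array. It was 3.68 and 3.25 in the lower and upper part of the GC window, 3.36 within GC classes, 2.96 within classes of input and 2.18 to 3.09 on a single array. The share within 1000 bp of another member, 1.06%, was 0% with the top 2%, 4.09% with the top 5%, 2.37% at 2000 bp and 11.2 to 12.3% on a single array. This share depends on the size of the set, and for the sets of other sizes no share of other eligible probes was computed beside it.

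The PRDM2 difference of neighbours, -0.004, was 0.015 with normexp and loess, -0.022 in the value table, -0.039 with the top 2%, 0.00596 with the top 5%, 0.064 at 200 bp, 0.019 at 1000 bp, 0.13 for neighbours of 45% GC or more and 0.019 to 0.020 on a single array. The input difference, 1.29, was 0.041 with normexp and loess, 0.99 within GC classes and 0.58 to 0.78 on a single array. limma called 10677 probes, and 24077 with the median eligible probe as 0. Of these alternatives, 3 were chosen after seeing the data: input within GC classes, H3K9me2 within classes of input, and H3K9me2 without the 5 motifs. No paired analysis was possible because PRDM2 has 2 numbered arrays, H3K9me2 has 1, and no result comes from a test between them.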
